A study of Homo sapiens with 16 samples.

Results

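The integrins and laminins described here are 32 genes of the 18332 in the deposited table. They were chosen by symbol: ITGA or ITGB followed by a subunit number or letter, or LAMA, LAMB or LAMC followed by a chain number. Of the members, 14 are integrin alpha subunits, 8 are integrin beta subunits and 10 are laminin chains. Symbols that only begin like a member were left out (7 symbols, among them ITGB1BP1, ITGB3BP and the antisense genes). ITGA4, ITGA8, ITGAD, ITGAX and LAMB4, which have no row in the table used, were not analysed here.

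Laminins are the main cell-binding proteins of the basement membrane, each a secreted trimer of an alpha, a beta and a gamma chain. Integrins are paired alpha and beta receptors that bind laminins, collagens or proteins with an RGD motif and couple them to the actin cytoskeleton, or, for the ITGA6 and ITGB4 pair, to keratin filaments in hemidesmosomes. In breast epithelium they anchor cells to the basement membrane, and the ITGB1 subunit is shared by most of the alpha subunits described here. A subunit's mRNA level does not give the amount of a receptor or trimer at the cell surface or in the matrix.

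Gene expression was measured by RNA-Seq in 2 established lines derived from human breast cancers and labelled ER negative, MDA-MB-231 as well as MDA-MB-468. Cells of either line were kept for 48 hours at a glucose concentration of 5 mM (the low-glucose control) or of 25 mM (high glucose, standing for hyperglycemia), which gave 4 groups of 4 replicates and 16 libraries in all. Per the study's methods, the treatment medium held no serum in either group, all cells were conditioned in low glucose first, and the lines were maintained in different media, so line and medium cannot be told apart. The labels name no osmotic control for these libraries, so glucose and osmolarity cannot be told apart either, and nothing in the labels says that the replicates were separate cultures on separate days, so p-values measure the spread between these libraries, which may be technical. Libraries held 14094597 to 24425916 reads, and a floor of 3 reads corresponded to 0.123 to 0.213 CPM. Epithelial markers were higher in MDA-MB-468 (CDH1 at a mean of 2007 normalized reads in low glucose, against 5.51 in MDA-MB-231) and most mesenchymal ones were high in MDA-MB-231 (VIM at 96228 against 21.5). The exception was the mesenchymal marker CDH2, low in both lines (a mean of 7.52 in low-glucose MDA-MB-231). The epithelial markers KRT8, KRT18, KRT19 and EGFR had many reads in MDA-MB-231 too, with KRT19 at 12295 against 25502 in low-glucose MDA-MB-468. ESR1, the estrogen receptor gene, had a mean of 1.31 normalized reads in MDA-MB-231 against 57.9 in MDA-MB-468 in low glucose.

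Values below are normalized read counts, that is reads divided by a size factor per library, unless RPKM is named. RPKM divides reads by transcript length and library size, and it is used wherever one gene's level is set beside another's. It rests on the length of 1 canonical transcript a gene, which for LAMA3 is the long isoform of 10651 bases, so the RPKM of a gene with isoforms of different length is approximate.

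In low-glucose MDA-MB-231, ITGA3, a subunit of a laminin receptor, was the alpha subunit with the highest level per length, at 428 ± 16.2 RPKM (SD, n = 4), and ITGB1 the highest beta subunit at 350.2 ± 13.8 RPKM. ITGA6, which pairs with ITGB1 or ITGB4 to bind laminin, followed ITGA3 at 145 ± 6.70 RPKM. Next came the collagen receptor subunit ITGA2 at 73.9 ± 3.81 RPKM, the fibronectin receptor subunit ITGA5 at 55.6 ± 4.27 RPKM and ITGAV at 24.4 ± 1.25 RPKM. These neighbours in the order did not overlap between replicates. Among the beta subunits, ITGB4 at 74.2 ± 3.16 RPKM and ITGB5 at 70.9 ± 3.60 RPKM overlapped and stood below ITGB1. ITGA3 alone made up 57.5% of the summed alpha subunit RPKM of this group, and ITGB1 67.9% of the summed beta subunit RPKM.

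In low-glucose MDA-MB-468 the order was different. ITGA6 was the highest alpha subunit at 33.8 ± 0.830 RPKM, ahead of ITGAV at 25.2 ± 0.498 and ITGA3 at 16.7 ± 0.502 RPKM, again without overlap between neighbours. ITGB4, the hemidesmosomal subunit, led the beta subunits at 130.04 ± 4.92 RPKM, with 51.1% of their sum, and ITGB1 followed at 76.3 ± 1.96 RPKM. ITGB6, which pairs with ITGAV and is typical of epithelial cells, reached 16.7 ± 0.129 RPKM here and 0.0173 ± 0.00602 RPKM in low-glucose MDA-MB-231. The summed alpha subunit level was 86.2 ± 0.992 RPKM, against 744 ± 9.35 RPKM in MDA-MB-231, and the summed beta subunit level was 255 ± 3.37 against 516 ± 9.43 RPKM.

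**Figure D1:**
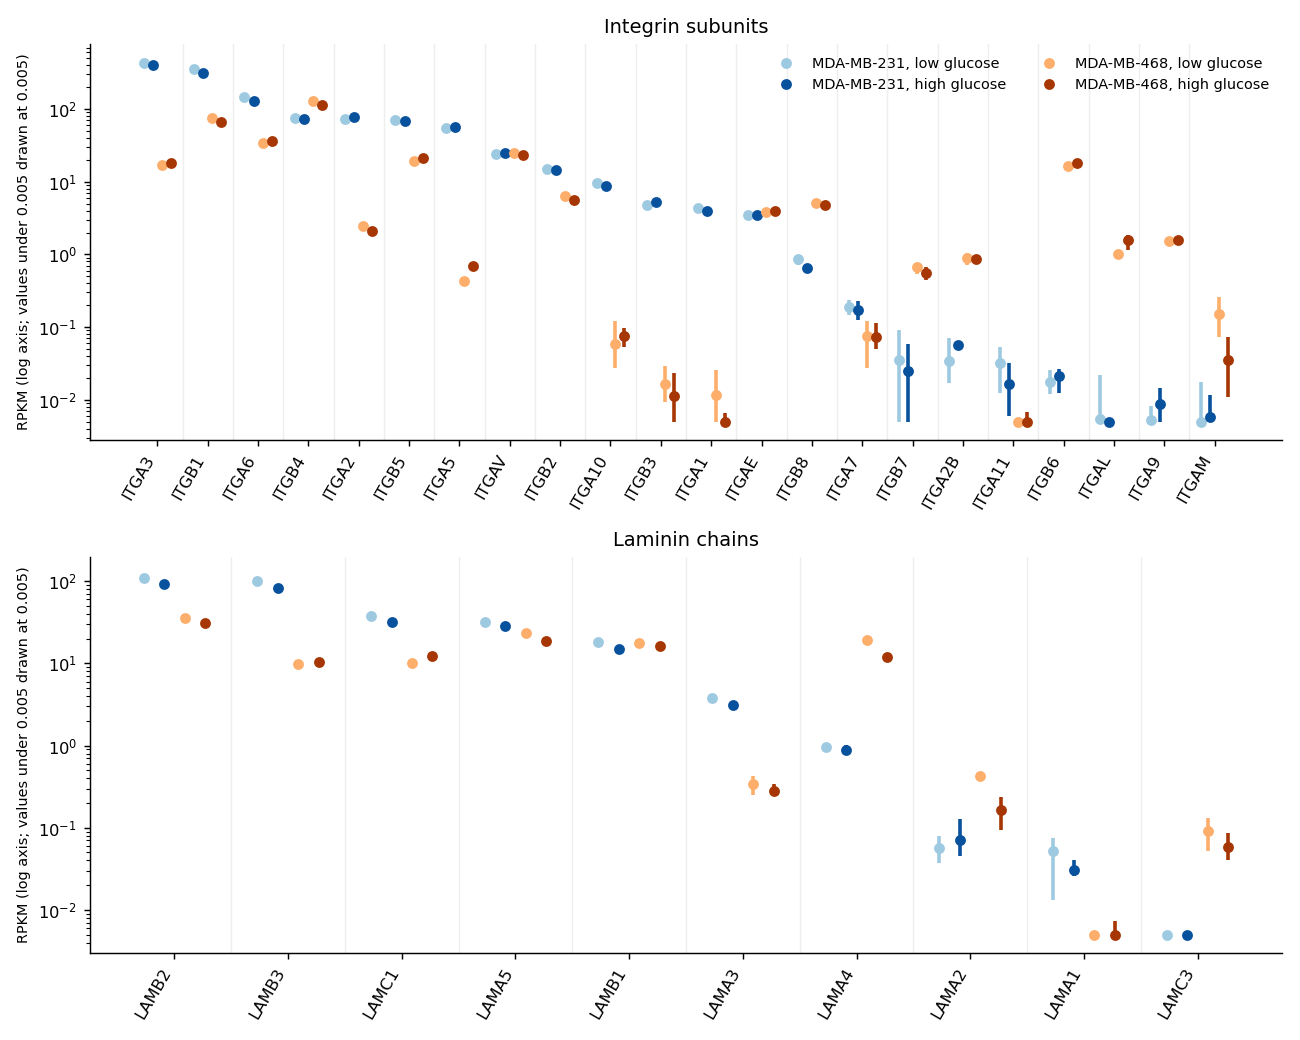
Level per transcript length of the 22 integrin subunits (top) and 10 laminin chains (bottom) in the 4 groups, in RPKM on a log axis, with genes ordered by their level in low-glucose MDA-MB-231. Points are means of 4 replicates and vertical lines run from the lowest to the highest replicate. ITGA3, ITGA2 and ITGA5 lie far lower in MDA-MB-468, and ITGB6, ITGA9 and ITGAL lie near the bottom of the axis in MDA-MB-231.

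Among laminin chains, LAMB2 and LAMB3 had the highest levels per length in low-glucose MDA-MB-231, at 110.1 ± 7.54 and 101 ± 4.87 RPKM, and their replicates overlapped. LAMC1, a gamma chain, followed at 37.4 ± 1.64 RPKM, LAMA5 at 31.6 ± 1.67 RPKM and LAMB1 at 17.98 ± 0.275 RPKM, each without overlap with its neighbour. In low-glucose MDA-MB-468 the order was LAMB2 at 35.5 ± 1.96, LAMA5 at 23.1 ± 1.19, LAMA4 at 19.1 ± 0.342 and LAMB1 at 17.6 ± 0.572 RPKM. LAMA4, the alpha chain known from vessel and muscle basement membranes, thus followed LAMA5 there and stood at 0.970 ± 0.0888 RPKM in MDA-MB-231. LAMA3 and LAMB3, chains of the anchoring laminin of epithelia, were at 0.336 ± 0.0760 and 9.71 ± 0.355 RPKM in low-glucose MDA-MB-468.

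**Figure D2:**
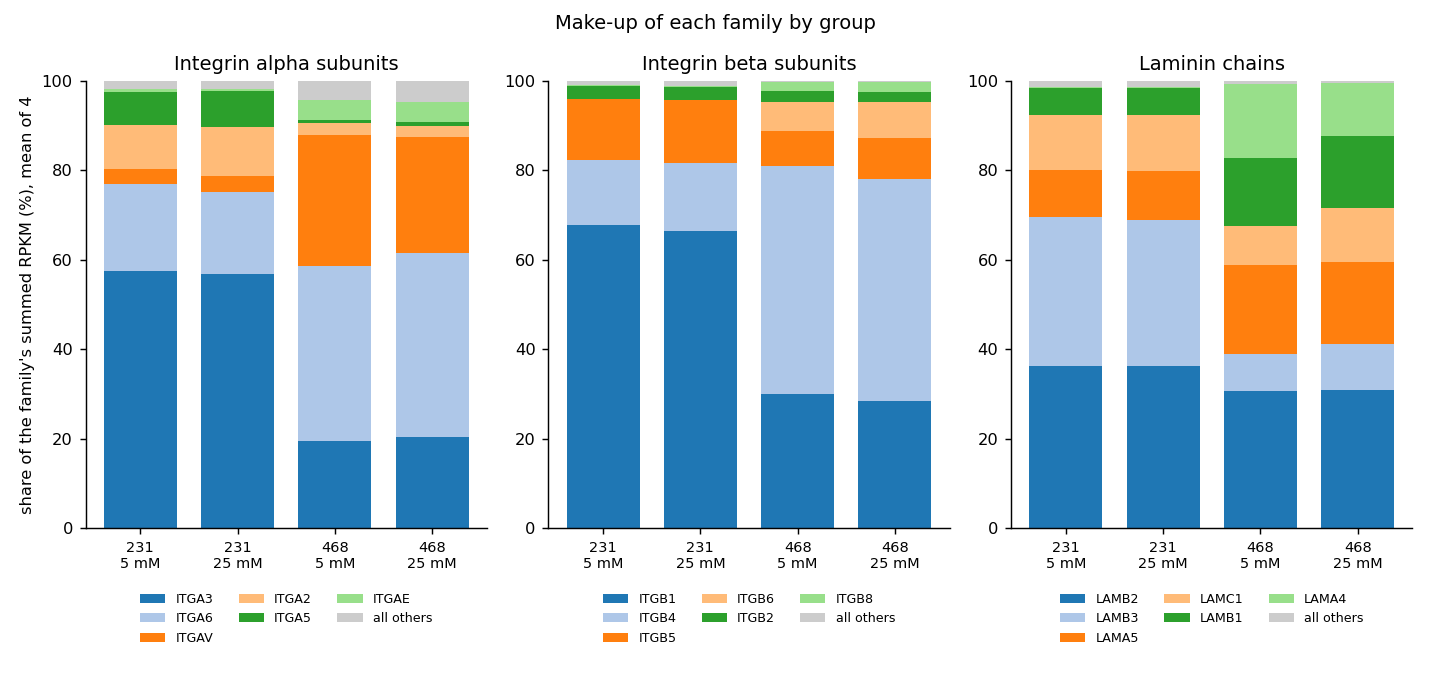
Share of each member in the summed RPKM of its family (the 14 alpha subunits, 8 beta subunits and 10 laminin chains described) in the 4 groups, as the mean of 4 replicates, with members that stay under 2% in every group drawn as "all others". ITGA3 and ITGB1 have the largest segments in both MDA-MB-231 groups, and ITGA6 and ITGB4 in both MDA-MB-468 groups.

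Most members differed between the lines. The lines were compared in low glucose with limma over genes that passed a filter on low reads, and 30 of the 31 members tested passed an adjusted p of 0.05, 11 higher and 19 lower in MDA-MB-468, where 85.4% of all 17115 genes tested passed (45% higher and 40.4% lower). A fold of at least 2 in either direction, which 47.1% of all genes tested reached with an adjusted p under 0.05, was reached by 26 members. The median log2 difference (MDA-MB-468 minus MDA-MB-231) was -1.38 over the members and 0.081 over all genes tested. Of the members called, 12 passed the filter through 1 line alone and so had to differ, and of the 19 that passed it in both lines 18 were called. These 12 are also among the 26 with a fold of at least 2 and enter the median of -1.38, so both values rest in part on the filter. ITGAE was not called, at a difference of -0.0065 with a 95% interval of -0.16 to 0.15, and ITGA11 was not tested. With the high-glucose groups compared instead, 29 members and 85.2% of all genes tested were called.

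The collagen receptor subunits were lower in MDA-MB-468. ITGA2 had values of 9834, 9753, 9832 and 10756 in the 4 low-glucose MDA-MB-231 libraries and 301, 291, 316 and 296 in the 4 MDA-MB-468 libraries, which is 33.3-fold lower (log2 fold change -5.06, SE 0.044, adjusted p = 1.9e-22). ITGA10 stood at 841 ± 34.6 and 4.71 ± 3.58 (mean ± SD, n = 4). ITGA1, whose gene lies 30.1 kb from ITGA2 on chromosome 5, had a mean of 806 ± 64.0 in MDA-MB-231 and 8 reads in total over the 4 MDA-MB-468 libraries, a ratio of 403 (95% interval 204 to 934) that covers counting error only. No replicate of one line reached the range of the other for any of these genes.

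The subunits of the fibronectin and vitronectin receptors did not move as one. ITGA5 had values of 4194, 4214, 4373 and 3619 in low-glucose MDA-MB-231 and 31.6, 28.8, 28.9 and 26.9 in MDA-MB-468, 136-fold lower (log2 fold change -7.09, SE 0.071, adjusted p = 9.24e-22). ITGB3 had a mean of 498 ± 38.7 in MDA-MB-231 and 7 reads in total over the MDA-MB-468 libraries, a ratio of 286 (95% interval 138 to 711). By contrast, ITGAV differed little, at 2979.7 ± 137 and 2789 ± 48.2, and its log2 difference of -0.095 lost its call under 7 of 23 alternatives, among them without MDA-MB-231 replicate 4 (-0.065, adjusted p = 0.0547), and changed sign in 1. ITGB6 had 6 reads in total over the 4 low-glucose MDA-MB-231 libraries and values of 1223, 1229, 1203 and 1208 in MDA-MB-468, a ratio of 959 (95% interval 440.2 to 2614). ITGB8, another partner of ITGAV that activates latent TGF-beta, was 5.36-fold higher in the MDA-MB-468 libraries (log2 fold change 2.42, SE 0.10, adjusted p = 1.09e-13).

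The laminin-binding subunits parted in direction. ITGA3 had values of 37343, 35749, 37718 and 34274 in low-glucose MDA-MB-231 and 1336, 1245, 1281 and 1279.9 in MDA-MB-468, 28.2-fold lower (log2 fold change -4.82, SE 0.035, adjusted p = 1.76e-23). ITGA6 was 4.73-fold lower and ITGB1 5.06-fold lower, with log2 differences of -2.24 (SE 0.029, adjusted p = 1.78e-20) and -2.34 (SE 0.027, adjusted p = 5.04e-21). ITGB4 was the exception, at 7889, 7326, 7929 and 7217 in MDA-MB-231 against 12281, 11422, 12232 and 12282 in MDA-MB-468, 1.59-fold higher (log2 fold change 0.67, SE 0.039, adjusted p = 2.86e-11), and its replicates did not overlap between the lines.

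Subunits known from leukocytes, ITGAL, ITGAM and ITGB7, and ITGA9 and the platelet subunit ITGA2B were read mainly in MDA-MB-468. ITGA9 had 3 reads in total over the low-glucose MDA-MB-231 libraries and 189 ± 17.4 in MDA-MB-468, a ratio of 297 (95% interval 101 to 1442). ITGAL had 2 reads in total against 81.5 ± 9.97, a ratio of 191 (95% interval 52.6 to 1587). The ratios were 27.3 (95% interval 7.17 to 231.34) for ITGAM, 23.4 (95% interval 12.5 to 49.5) for ITGA2B and 20.02 (95% interval 9.45 to 50.8) for ITGB7, all on low reads. ITGB2, the partner of ITGAL and ITGAM, went the other way, at 727 ± 25.2 in MDA-MB-231 against 278 ± 14.97 in MDA-MB-468. Of a list of 4 leukocyte markers, PTPRC and CD68 had rows, and their summed level ran from 2136 to 2394 in low-glucose MDA-MB-231 and from 36.4 to 49.0 in low-glucose MDA-MB-468. PTPRC, the defining marker, had a mean of 12.5 and 8.77 in these groups, and the part of such cells in the result was not tested.

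All 10 laminin chains tested between the lines were called, 3 higher and 7 lower in MDA-MB-468, beside 85.4% of all genes tested. Among these, LAMA1 (lower) passed the filter on low reads through MDA-MB-231 alone and LAMC3 (higher) through MDA-MB-468 alone. The calls of LAMA1 and LAMC3 were thus fixed by the filter. LAMB3 had values of 7165, 7051, 7399 and 6519 in low-glucose MDA-MB-231 and 626, 593, 638 and 595 in MDA-MB-468, 11.5-fold lower (log2 fold change -3.52, SE 0.043, adjusted p = 1.16e-20). LAMA3 was 12.6-fold lower. LAMA4 went the other way, with values of 131, 119, 131 and 106 in MDA-MB-231 against 2142, 2203, 2137 and 2201 in MDA-MB-468, 17.8-fold higher (log2 fold change 4.15, SE 0.069, adjusted p = 5.52e-19). LAMA1 had no read in the low-glucose MDA-MB-468 libraries and 39 in total in MDA-MB-231, where it was at least 12.2-fold higher against a floor of 3 reads over the group. LAMC3 had no read in low-glucose MDA-MB-231 and 47 in total in MDA-MB-468, at least 16.8-fold higher by the same floor.

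Promoter sequences are shown for the 6 laminin chains called lower in MDA-MB-231 (below) and for the integrin subunits ITGA5 and ITGB6, which parted between the lines in opposite directions. RefSeq starts were found for 23 of the 32 members (30 starts, on GRCh38.p14), and the 250 bases before a start are printed 5′ to 3′ on the gene's strand. Capitals mark TGANTCA, the letters of an AP-1 element, and CAGGTG or CACCTG, letters of an E-box, in LAMA3, LAMB3, LAMA5 and ITGB6. In LAMC1, LAMB1, LAMB2 and ITGA5 they mark GGGCGG or CCGCCC, the letters of a GC box.
LAMA3, chr18:23872770-23873019, plus strand: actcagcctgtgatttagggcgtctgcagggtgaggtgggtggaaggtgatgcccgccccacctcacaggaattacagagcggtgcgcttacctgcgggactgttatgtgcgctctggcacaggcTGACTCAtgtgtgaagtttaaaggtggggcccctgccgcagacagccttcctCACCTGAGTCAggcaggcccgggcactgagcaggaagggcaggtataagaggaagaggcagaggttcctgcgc
LAMB3, the third of 3 starts, chr1:209651375-209651624, minus strand: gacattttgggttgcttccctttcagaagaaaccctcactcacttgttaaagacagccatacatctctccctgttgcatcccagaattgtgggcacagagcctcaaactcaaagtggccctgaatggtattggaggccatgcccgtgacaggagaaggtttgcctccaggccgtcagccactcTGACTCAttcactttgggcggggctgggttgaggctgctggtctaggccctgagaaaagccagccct
LAMC1, chr1:183023170-183023419, plus strand: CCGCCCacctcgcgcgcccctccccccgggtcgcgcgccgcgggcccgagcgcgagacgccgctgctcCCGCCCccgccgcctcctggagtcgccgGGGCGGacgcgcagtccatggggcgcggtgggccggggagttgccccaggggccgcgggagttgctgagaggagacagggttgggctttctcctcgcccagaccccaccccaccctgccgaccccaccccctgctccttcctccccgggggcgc
LAMB1, chr7:108003162-108003411, minus strand: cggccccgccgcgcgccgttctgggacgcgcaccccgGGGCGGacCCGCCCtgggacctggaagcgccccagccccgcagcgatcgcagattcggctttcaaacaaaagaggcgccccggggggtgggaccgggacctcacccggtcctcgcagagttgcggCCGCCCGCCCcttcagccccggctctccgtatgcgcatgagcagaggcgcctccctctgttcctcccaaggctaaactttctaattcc
LAMB2, chr3:49133051-49133300, minus strand: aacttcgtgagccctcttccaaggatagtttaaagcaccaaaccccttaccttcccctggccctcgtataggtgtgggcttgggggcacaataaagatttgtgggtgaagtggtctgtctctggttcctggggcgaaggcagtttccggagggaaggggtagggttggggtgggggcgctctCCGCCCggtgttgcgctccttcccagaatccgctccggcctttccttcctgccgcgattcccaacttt
LAMA5, chr20:62367313-62367562, minus strand: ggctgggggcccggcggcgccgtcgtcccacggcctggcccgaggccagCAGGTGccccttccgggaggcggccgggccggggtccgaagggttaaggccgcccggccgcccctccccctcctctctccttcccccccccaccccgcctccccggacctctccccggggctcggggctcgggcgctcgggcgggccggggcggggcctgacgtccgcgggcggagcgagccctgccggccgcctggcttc
ITGA5, chr12:54419267-54419516, minus strand: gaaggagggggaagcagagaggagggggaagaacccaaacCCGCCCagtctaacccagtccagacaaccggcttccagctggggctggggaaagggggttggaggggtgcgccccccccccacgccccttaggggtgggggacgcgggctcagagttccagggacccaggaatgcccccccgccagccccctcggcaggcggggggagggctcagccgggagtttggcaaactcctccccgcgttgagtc
ITGB6, chr2:160200273-160200522, minus strand: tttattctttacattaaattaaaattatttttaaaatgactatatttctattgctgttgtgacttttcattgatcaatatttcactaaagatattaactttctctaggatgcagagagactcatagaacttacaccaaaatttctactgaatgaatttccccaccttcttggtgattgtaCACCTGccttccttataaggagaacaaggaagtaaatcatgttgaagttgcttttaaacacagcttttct

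TGANTCA reads the same on both strands, and it was found in the windows of LAMA3, 125 and 69 bases before the 1 start found, and of LAMB3, 67 bases before the third start of the gene. Whether a start printed here is that of the canonical transcript used for RPKM was not examined. The LAMA3 start thus need not be that of its long isoform. No other of the 30 member windows held it, and 6.57% of all 35116 RefSeq windows of the same length did. CAGGTG or CACCTG was in 7 member windows, ITGB6 (70 bases before the start), LAMA5 (201 bases before it) and LAMA3 (73 bases before it, sharing letters with the nearer TGANTCA) among them, and in 17.5% of all windows. GGGCGG or CCGCCC was in 16 member windows and in 42.6% of all windows, with 3 matches in LAMC1, 4 in LAMB1, of which a pair overlaps, 5 in LAMA5 (in lower case above), and 1 each in LAMB2 and ITGA5. LAMA3 (197 bases before the start) and the printed LAMB3 window (52 bases before the third start) also held 1 each, in lower case above. These are matches of letters in a window, and no binding was measured.

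In MDA-MB-231, most laminin chains were modestly lower in high glucose, and ITGA6, ITGB1, ITGA3 and ITGB8 were the integrin subunits that fell. Of 24 members tested, 10 passed an adjusted p of 0.05, all 10 of them lower in high glucose. Of all 14884 genes tested, 15.1% passed, 5.71% higher and 9.37% lower. The values of the 4 low and 4 high libraries did not overlap for 10 members, and for 18.7% of all genes tested. Among laminins 6 of 9 were called, all lower, with a median log2 fold change of -0.27, and among integrins 4 of 15, all lower, with a median of -0.094, beside 0.0017 over all genes tested. No member reached a fold of 2.

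Both chains of the epithelial anchoring laminin described here fell in MDA-MB-231. LAMA3 (ENSG00000053747, chromosome 18, 21269417 to 21536186, on hg19) had values of 691, 692, 721 and 725 in the 4 low-glucose libraries and 528, 576, 566 and 597 in the 4 high-glucose ones. All 4 high-glucose values were under the lowest low-glucose value (log2 fold change -0.32, SE 0.05, adjusted p = 0.000246), and the call was lost where all 16 libraries were fitted together (adjusted p = 0.125). LAMB3 (ENSG00000196878, chromosome 1, 209788215 to 209825770) had 7165, 7051, 7399 and 6519 in low glucose and 5684, 5645, 5499.5 and 6017 in high glucose, 1.23-fold lower, again without overlap (log2 fold change -0.30, SE 0.038, adjusted p = 2.98e-05).

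LAMC1, the most widely used gamma chain, also fell. Its values were 5238, 4964, 4978 and 5411 in low glucose and 4405, 4403, 4287 and 4221 in high glucose, every high-glucose library under every low-glucose one (log2 fold change -0.25, SE 0.033, adjusted p = 5.14e-05). LAMB1, a beta chain of laminins made by many tissues, had 1789, 1780.0, 1759 and 1718 and 1422, 1384, 1475 and 1521, also without overlap (log2 fold change -0.28, SE 0.038, adjusted p = 6.04e-05). LAMB2 fell from 10873 ± 792 to 8987 ± 299.9 and LAMA5, the most widespread alpha chain of adult epithelia, from 6262 ± 365 to 5500.5 ± 155 (mean ± SD, n = 4), with log2 fold changes of -0.27 (SE 0.042, adjusted p = 0.00023) and -0.19 (SE 0.038, adjusted p = 0.00261). LAMA4, at 122 ± 11.8 and 110.1 ± 10.99, was not called (log2 fold change -0.14, SE 0.11, adjusted p = 0.428), nor were the low chains LAMA1 and LAMA2.

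**Figure D3:**
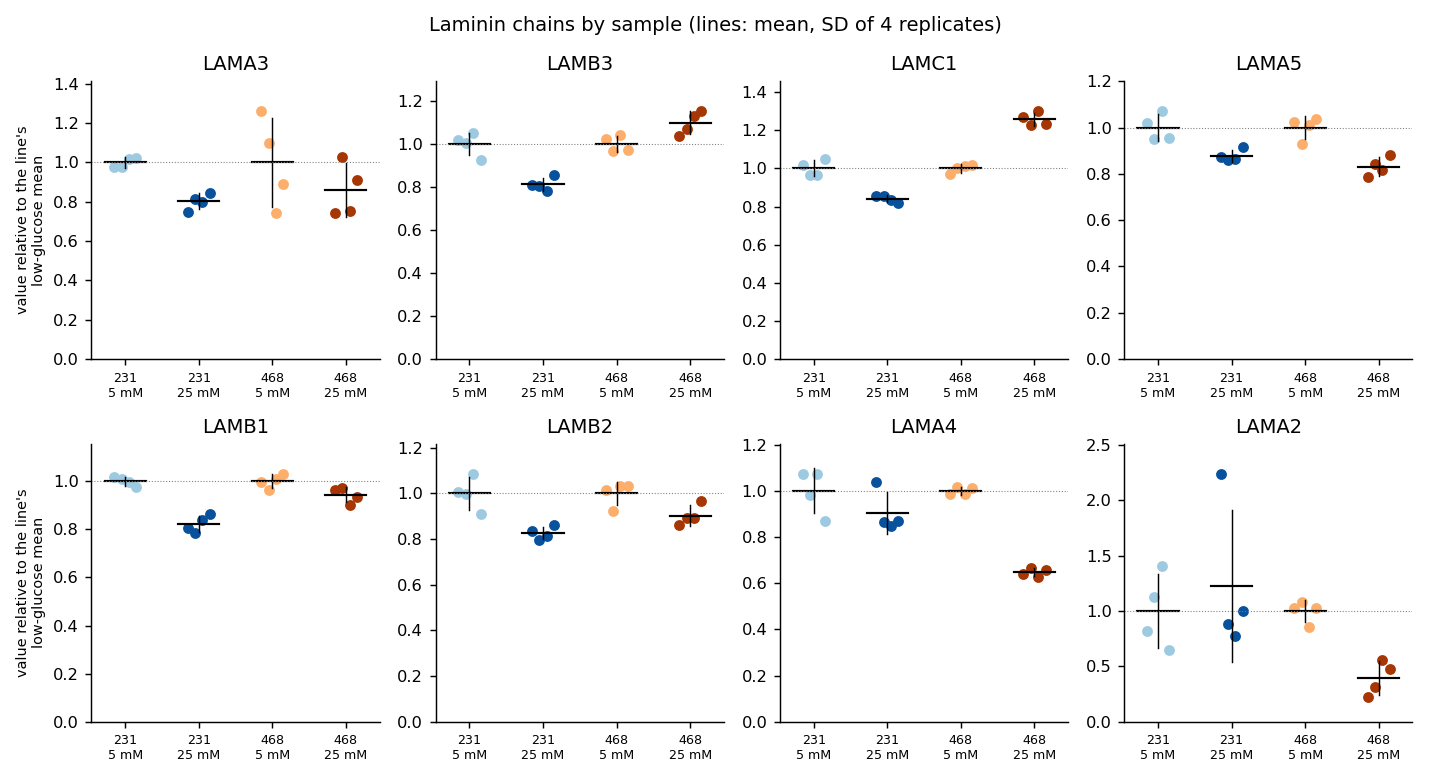
Values of 8 laminin chains in each of the 16 libraries, divided by the mean of the same line's 4 low-glucose libraries (y axis from 0, with a dotted line at 1). Points are libraries, horizontal bars are means and vertical bars are SD. In MDA-MB-231 the high-glucose points of LAMA3, LAMB3, LAMC1, LAMA5, LAMB1 and LAMB2 lie below those of low glucose. In MDA-MB-468 LAMC1 lies higher and LAMA4 and LAMA2 lower in high glucose.

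Of the laminin-binding integrin subunits in MDA-MB-231, ITGA6 (ENSG00000091409, chromosome 2, 173292082 to 173371187) had 14523, 14339, 14135 and 15520.5 in low glucose and 12899, 12902, 12746 and 12565 in high glucose, a fall of 1.14-fold without overlap (log2 fold change -0.19, SE 0.03, adjusted p = 0.000234). Their partner ITGB1 had 22009, 22312, 22590.3 and 23808 and 19903, 20527, 20288 and 19960.3, also without overlap (log2 fold change -0.17, SE 0.028, adjusted p = 0.000476). ITGA3 was lower by a log2 of -0.12 (SE 0.031, adjusted p = 0.0169), and this call was lost under 9 of 24 alternatives. It was lost without any 1 of low-glucose replicates 1 and 3 and high-glucose replicates 2 and 3 (-0.11 to -0.097, adjusted p = 0.0540 to 0.0632). ITGB4 did not pass, at 7590.4 ± 371 and 7231 ± 318, with a 95% interval of -0.15 to 0.01 on the log2 scale.

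Among the other subunits of MDA-MB-231, ITGB8 had the largest change of the called integrins. Its values were 136, 109.6, 139.7 and 148 in low glucose and 85.6, 99.9, 112 and 96.1 in high glucose, where the highest high-glucose library lies above the lowest low-glucose one (log2 fold change -0.43, SE 0.12, adjusted p = 0.0181), and the call was lost under 4 of 24 alternatives, among them without low-glucose replicate 1 (-0.42, adjusted p = 0.0501) and without high-glucose replicate 1 (-0.37, adjusted p = 0.0618). The remaining subunits with over 100 normalized reads did not pass the test. ITGA5 had 4194, 4214, 4373 and 3619 in low glucose and 4127, 3997, 3946 and 4246 in high glucose, with a 95% interval of -0.10 to 0.095. For ITGAV the interval was -0.079 to 0.078, for ITGA2 -0.027 to 0.11, for ITGB5 -0.17 to -0.015 and for ITGB3 -0.039 to 0.20. ITGA1 and ITGA10, with log2 fold changes of -0.17 and -0.13, had adjusted p-values of 0.0675 and 0.0802. The low-glucose replicate 4 library decided some of these: without it ITGB5 was called lower, at -0.13 (adjusted p = 0.00310), ITGA10 lower, at -0.15 (adjusted p = 0.0483), and ITGA2 higher, at 0.077 (adjusted p = 0.0442). ITGA1 was called lower without low-glucose replicate 2 (-0.22, adjusted p = 0.0247) or high-glucose replicate 3 (-0.20, adjusted p = 0.0489).

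**Figure D4:**
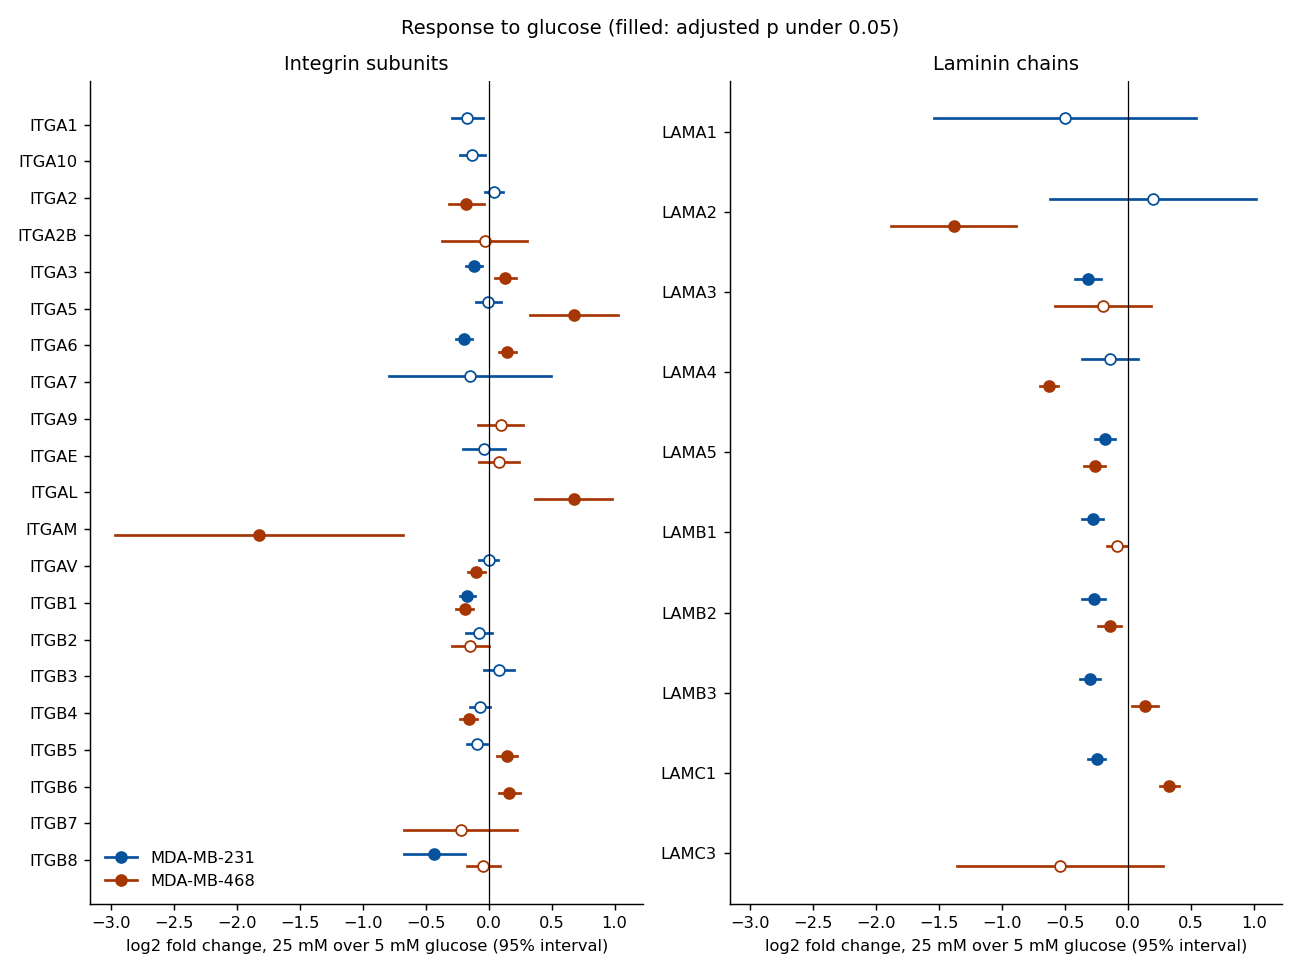
Log2 fold change of each tested member, 25 mM over 5 mM glucose, in MDA-MB-231 (blue) and MDA-MB-468 (brown), with 95% intervals from limma, for integrin subunits (left) and laminin chains (right). Filled points passed an adjusted p of 0.05, which 10 members did in MDA-MB-231 against 17 in MDA-MB-468. The widest intervals belong to members with few reads, such as ITGAM and LAMA1.

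In MDA-MB-468, high glucose moved members in both directions. Of 26 members tested, 17 passed, 8 higher and 9 lower, where 47.6% of all 15757 genes tested passed (24.9% higher and 22.7% lower). ITGAM, described below, is among the 9 and passed the filter on low reads through low glucose alone. Low and high libraries did not overlap for 15 members and for 42.5% of all genes tested. ITGAM is among these 15 only through the scaling, with a lowest low-glucose value of 5.53 and a highest high-glucose value of 5.46. Its place there is no support for a separation. Among integrins 6 were called higher and 5 lower of 17, and among laminins 2 higher and 4 lower of 9. The median log2 fold change was -0.091 over the members, beside 0.00011 over all genes tested.

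Among the laminin alpha chains of MDA-MB-468, LAMA4, LAMA5 and LAMA2 fell. LAMA4 (ENSG00000112769, chromosome 6, 112429134 to 112576141) had values of 2142, 2203, 2137 and 2201 in low glucose and 1389, 1446, 1361 and 1426 in high glucose, 1.54-fold lower, with wide separation of the groups (log2 fold change -0.63, SE 0.034, adjusted p = 4.83e-10). LAMA5 had 4247, 3858, 4189.8 and 4307 and 3266, 3496, 3392 and 3659.9, also without overlap (log2 fold change -0.27, SE 0.04, adjusted p = 4.38e-05). LAMA2, the main alpha chain of muscle laminin, had 67.2, 70.8, 56.0 and 67.4 and 14.6, 20.8, 36.6 and 31.2 (log2 fold change -1.38, SE 0.24, adjusted p = 0.000134), from 288 and 103 reads in total. LAMA3 was low, at 71.2, 61.9, 42.0 and 50.3 and 41.8, 57.9, 42.3 and 51.4, and these ranges overlapped (log2 fold change -0.20, SE 0.18, adjusted p = 0.378).

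Of the beta and gamma chains in MDA-MB-468, LAMC1 had the strongest call. Its values were 1212, 1251, 1268 and 1272 in low glucose and 1588, 1533, 1629 and 1540.0 in high glucose, 1.26-fold higher and without overlap (log2 fold change 0.33, SE 0.036, adjusted p = 1.4e-06). LAMB3 was higher by a log2 of 0.13 (SE 0.05, adjusted p = 0.0359), with the groups overlapping at 626, 593, 638 and 595 and 636, 655, 692 and 707, and this call was lost under 8 of 24 alternatives, among them without low-glucose replicate 2 or 4 or high-glucose replicate 3 or 4 (0.11 to 0.12, adjusted p = 0.0835 to 0.109). LAMB2 was lower at -0.15 (SE 0.042, adjusted p = 0.00859), a call lost without replicate 1 (-0.12, adjusted p = 0.0739) or replicate 3 (-0.12, adjusted p = 0.0682) of both groups. LAMB1 did not pass, with a 95% interval of -0.16 to -0.0047, and it was called lower without low-glucose replicate 2 (-0.10, adjusted p = 0.0428).

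The laminin-binding integrin subunits of MDA-MB-468 went in both directions. ITGA6 rose from 3102, 3119.9, 2991 and 3154 to 3369, 3567, 3392 and 3383, without overlap (log2 fold change 0.15, SE 0.031, adjusted p = 0.000903), and ITGA3 from 1286 ± 37.3 to 1409 ± 61.1 (log2 fold change 0.13, SE 0.04, adjusted p = 0.0125). The ITGA3 call was lost without replicate 2 (0.10, adjusted p = 0.0701) or replicate 4 (0.11, adjusted p = 0.0806) of both groups. ITGB4 fell from 12281, 11422, 12232 and 12282 to 10376, 10847, 10690.0 and 11321, without overlap (log2 fold change -0.16, SE 0.032, adjusted p = 0.000746). ITGB1 fell from 4473, 4615, 4332 and 4513 to 3991, 3878, 4016 and 3817, 1.14-fold and without overlap (log2 fold change -0.19, SE 0.03, adjusted p = 6.95e-05). ITGB4 and ITGB1 are partners of ITGA6 and, for ITGB1, of ITGA3.

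Of the RGD-binding subunits in MDA-MB-468, ITGA5 had the largest rise, on low reads. Its values were 31.6, 28.8, 28.9 and 26.9 in low glucose and 53.5, 42.6, 46.9 and 45.5 in high glucose, 1.60-fold higher and without overlap (log2 fold change 0.68, SE 0.17, adjusted p = 0.00293), from 129 and 189 reads in total. ITGB5 rose from 1332, 1407, 1421 and 1294 to 1498, 1508, 1514 and 1521 and ITGB6 from 1223, 1229, 1203 and 1208 to 1350.3, 1302, 1444 and 1359, neither with overlap, by 0.15 (SE 0.038, adjusted p = 0.004) and 0.16 (SE 0.039, adjusted p = 0.0021) on the log2 scale. The ITGB6 call was lost where all 16 libraries were fitted together (adjusted p = 0.412). Their partner ITGAV fell by a log2 of -0.10 (SE 0.032, adjusted p = 0.0177), a call that was lost under 5 of 24 alternatives, among them without low-glucose replicate 3 (-0.090, adjusted p = 0.0547) or high-glucose replicate 4 (-0.082, adjusted p = 0.0598). ITGB8 was not called, with a 95% interval of -0.17 to 0.09. The collagen receptor subunit ITGA2, at 301 ± 10.9 and 266 ± 17.2, was called lower (log2 fold change -0.18, SE 0.067, adjusted p = 0.0374) and lost its call under 13 of 24 alternatives, among them without replicate 1, 3 or 4 of either group (-0.19 to -0.15, adjusted p = 0.0567 to 0.105).

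**Figure D5:**
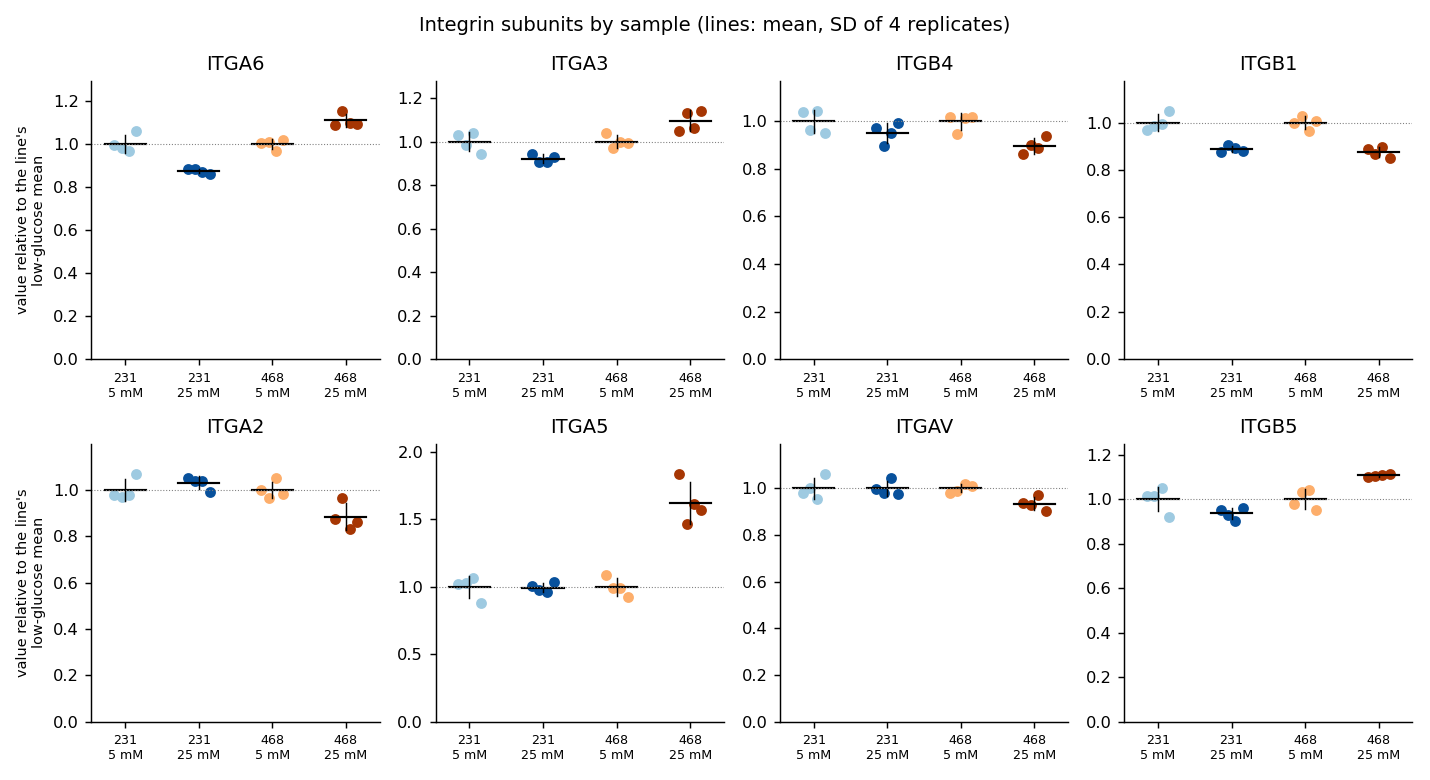
Values of 8 integrin subunits in each of the 16 libraries, divided by the mean of the same line's 4 low-glucose libraries (y axis from 0, with a dotted line at 1). Points are libraries, horizontal bars are means and vertical bars are SD. ITGA6 and ITGA3 lie lower in high glucose in MDA-MB-231 and higher in MDA-MB-468, and ITGB1 lies lower in both lines. ITGA5 lies higher in MDA-MB-468 only, on low reads there, and this difference between lines passed its test.

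Of the leukocyte subunits of MDA-MB-468, ITGAL rose. ITGAL had 68.8, 86.3, 91.9 and 79.0 in low glucose and 154, 95.04, 147 and 133 in high glucose, 1.60-fold higher and without overlap (log2 fold change 0.67, SE 0.14, adjusted p = 0.00102), a call lost where all 16 libraries were fitted together (adjusted p = 0.0830). ITGAM had 12, 5, 22 and 12 reads in low glucose and 1, 5, 3 and 1 in high glucose, so the ranges touch at 5 reads. It passed the filter on low reads through the low-glucose group alone, so its call, among the 9 lower, is no support for a change, and no fold is given. ITGB2, their shared partner, did not pass, at 278 ± 14.97 and 252 ± 13.6. PTPRC had a mean of 8.77 normalized reads in low and 3.12 in high glucose, and the summed level of the 2 leukocyte markers with rows ran from 36.4 to 49.0 in low and from 19.7 to 42.1 in high glucose. Their part in the result was not tested.

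Whether the lines responded differently was tested as the interaction of line and glucose over all 16 libraries. Of 31 members tested, 12 passed, 8 with a more positive response in MDA-MB-468 and 4 with a more negative one, where 30.9% of all 17115 genes tested passed, 17% and 13.9% in these directions. Among the 31, 12 passed the filter on low reads through 1 line alone, and 1 of these was called. With few reads in the other line, the lack of a call for the rest is no sign of a like response. Of the 19 that passed in both lines, 11 were called, 8 more positive and 3 more negative. LAMC1 had the strongest call: its log2 fold change was -0.25 in MDA-MB-231 against 0.33 in MDA-MB-468, a difference of 0.58 (SE 0.044, adjusted p = 5.43e-08). ITGA6 (-0.19 and 0.15), ITGA3 (-0.12 and 0.13) and LAMB3 (-0.30 and 0.13) likewise passed the test in both lines in opposite directions, with differences of 0.34 (SE 0.04, adjusted p = 6.23e-06), 0.25 (SE 0.049, adjusted p = 0.000898) and 0.43 (SE 0.061, adjusted p = 4.13e-05). These are all the members called in opposite directions in the 2 lines.

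ITGA5, near 0 in MDA-MB-231 and higher in MDA-MB-468, differed by 0.68 (SE 0.10, adjusted p = 6.16e-05). This SE is below that of the ITGA5 response in MDA-MB-468 alone, since the interaction test used a common spread for both lines. ITGA5 had 17609 reads in total in low-glucose MDA-MB-231 and 129 in low-glucose MDA-MB-468, so this adjusted p may be too small. LAMA4 differed in the negative direction by -0.48 (SE 0.10, adjusted p = 0.00105), and LAMA2, on low reads, by -1.58 (SE 0.45, adjusted p = 0.0134), a call lost without replicate 1 of every group (-0.96, adjusted p = 0.107), without replicate 2 (-1.64, adjusted p = 0.0547) and without replicate 4 (-1.57, adjusted p = 0.0550). ITGAM, the 12th call, entered the test through low-glucose MDA-MB-468 alone and had 2 reads in total in each MDA-MB-231 group, so no response was measured there to compare. The other differences called were ITGB8, ITGB5, LAMB1 and ITGA2, and that of ITGB8 was lost under 16 of 31 alternatives, 13 of which leave out a single library (adjusted p = 0.0518 to 0.0825, with the difference at 0.32 to 0.40). That of LAMB1 was lost without replicate 1 or 2 of every group (0.17 and 0.14, adjusted p = 0.0689 and 0.0640) and that of ITGA2 without replicate 1 or 3 (-0.20 and -0.16, adjusted p = 0.104 and 0.140). For members called lower in both lines, ITGB1, LAMA5 and LAMB2, the difference had 95% intervals of -0.10 to 0.057, -0.21 to 0.052 and -0.022 to 0.27 and did not pass.

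The other genes of the pathway were counted in lists, none of which holds a member. The lists were chosen with earlier results of these data known. Of 12 basement membrane partners of laminins tested in MDA-MB-231, 6 were called lower and none higher, with a median log2 fold change of -0.27 and all 12 values negative, where 9.37% of all genes tested were lower and 5.71% higher. The type IV collagen chains COL4A1 and COL4A2, which form the network that laminins join, fell from 1546 ± 80.6 to 1104 ± 42.5 and from 4482 ± 198 to 3070.4 ± 125 (log2 fold change -0.48, adjusted p = 7.77e-07, and log2 fold change -0.55, adjusted p = 3.79e-08). In MDA-MB-468, 7 of 17 were lower and 1 higher (5 and 3 with length correction), where 22.7% of all genes tested were lower and 24.9% higher. COL4A6 fell from 109 ± 10.9 to 49.4 ± 6.75 (log2 fold change -1.13, adjusted p = 3.26e-06), and FBLN1, a fibulin of basement membranes, rose from 5555 ± 158 to 6411 ± 219 (log2 fold change 0.21, adjusted p = 4.83e-05).

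Of the hemidesmosome and laminin receptor genes, 6 of 10 tested were lower and none higher in MDA-MB-231, while 5 of 9 were higher and 1 lower in MDA-MB-468, beside the same shares of all genes (9.37% lower in MDA-MB-231, and 24.9% higher and 22.7% lower in MDA-MB-468). After quantile rescaling the counts were 4 lower and 1 higher in MDA-MB-231 (4 lower and none higher with length correction) and 5 higher and 2 lower in MDA-MB-468. In the interaction test 7 of the 10 had a more positive response in MDA-MB-468 and none a more negative one (5 and 1 after quantile rescaling), beside 17% and 13.9% of all genes tested. PLEC, the plakin that links ITGB4 to keratins, fell in MDA-MB-231 from 76053 ± 4416 to 64979 ± 3285, and its level in MDA-MB-468 also fell, from 9645 ± 462 to 7503 ± 578 (adjusted p = 0.000851 and 7.64e-06). BCAM, a receptor of LAMA5 laminins, fell in MDA-MB-231 from 375 ± 28.2 to 257 ± 14.0 (log2 fold change -0.54, adjusted p = 3.61e-05). SDC1 and SDC4, syndecans that act beside integrins, rose in MDA-MB-468, SDC1 from 3288 ± 188 to 5056 ± 93.0 (log2 fold change 0.62, adjusted p = 1.35e-09).

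Of 16 integrin ligands other than laminins, 9 were lower and 1 higher in MDA-MB-231, and 11 lower and 2 higher in MDA-MB-468. Of all genes tested, 9.37% were lower and 5.71% higher in the former line, and 22.7% and 24.9% in the latter. CCN2, a matricellular ligand, fell in MDA-MB-231 from 9069 ± 146 to 6244 ± 109.8 (log2 fold change -0.54, adjusted p = 1.12e-09), and in MDA-MB-468 its level fell from 1087 ± 20.2 to 698 ± 33.6 (log2 fold change -0.64, adjusted p = 6.66e-09). THBS1 fell in MDA-MB-231 from 21621 ± 546 to 14977 ± 477 (log2 fold change -0.53, adjusted p = 2.94e-09), and ICAM1, the ligand of ITGAL with ITGB2, rose from 969 ± 72.9 to 1309 ± 10.9 (log2 fold change 0.44, adjusted p = 8.14e-06). In MDA-MB-468, TGFB2 fell from 2206 ± 86.4 to 1269.7 ± 80.9 and TGFB1, whose latent form is bound by ITGAV with ITGB6 or ITGB8, rose from 465 ± 33.9 to 688 ± 57.1 (adjusted p = 7.93e-10 and 2.63e-06).

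Of 38 integrin activators and adhesion adaptors, 1 was higher and 3 lower in MDA-MB-231, and 10 were higher and 9 lower in MDA-MB-468 (3 higher and 2 lower, and 8 higher and 11 lower, after quantile rescaling, and 2 higher and 3 lower, and 14 higher and 8 lower, with length correction). These 4 and 19 calls of 38 stand beside 15.1% and 47.6% of all genes tested. In MDA-MB-231 the kindlin FERMT1 rose from 668 ± 23.1 to 865 ± 29.0 (log2 fold change 0.37, adjusted p = 2.07e-05), and the actinins ACTN1 and ACTN4 were lower. In MDA-MB-468 the kinase-like adaptor ILK rose from 732 ± 33.4 to 1348 ± 51.9 (log2 fold change 0.88, adjusted p = 2.62e-10), and the scaffold NEDD9 fell from 431 ± 10.8 to 223 ± 13.4 (log2 fold change -0.95, adjusted p = 4.75e-09). Of 9 tetraspanins and partners, 2 were higher and 2 lower in MDA-MB-231 (3 and 1 after quantile rescaling, 1 and 4 with length correction), and 5 higher and 4 lower in MDA-MB-468, beside the shares of all genes just given. CD82, a tetraspanin that associates with laminin-binding integrins, fell in MDA-MB-231 from 1671 ± 43.9 to 1319.7 ± 85.7 and rose in MDA-MB-468 from 7749 ± 253 to 9519 ± 271 (adjusted p = 3.78e-05 and 6.55e-07).

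Transcript length moved with the glucose response, and the members are long, with a median canonical transcript of 5856 bases among those tested in MDA-MB-231 against 3114 over all genes tested. Across genes, Spearman's rho of the log2 fold change with length was -0.19 in MDA-MB-231 (14289 genes) against -0.15 in MDA-MB-468 (15079 genes), as a description of genes that share their libraries. In MDA-MB-231, genes as long as the members, 2806 to 11426 bases, had a median log2 fold change of -0.020, and 12.5% of them were called lower. For genes of this length in MDA-MB-468 the median was -0.036, and 29.3% were called lower and 23.2% higher. With the length trend removed, 9 members were called lower and 1 higher in MDA-MB-231 (15.3% of all genes tested were called). The member called higher was not called without this correction, so the calls of this line were no longer all in the same direction. LAMB3, LAMB1 and LAMC1 stood at -0.29 (adjusted p = 2.3e-05), -0.26 (adjusted p = 0.000131) and -0.20 (adjusted p = 4.66e-05). In MDA-MB-468 the split of 8 higher and 9 lower became 8 higher and 6 lower (48.6% of all genes tested were called), and the median over the members moved from -0.091 to -0.029, with LAMA4 at -0.55 (adjusted p = 6.07e-11) and LAMC1 at 0.42 (adjusted p = 2.64e-08). The LAMA5 call in MDA-MB-231 was lost, at -0.12 (adjusted p = 0.0519).

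Some members share exonic bases with other genes, and whether counting was by strand is not given in the sources used here. LAMB1 shares 300 bases with DLD on the other strand, and DLD was called lower in MDA-MB-231 (log2 fold change -0.14, adjusted p = 0.0422). LAMA5 shares 244 bases with ADRM1, which was not called in either line. ITGAE shares 427 bases with HASPIN, ITGB7 shares 1881 with ZNF740, ITGA9 shares 763 with ITGA9-AS1 and ITGA1 shares 499 on its own strand with PELO, so reads of these pairs may be mixed. ITGB1P1, a processed pseudogene of ITGB1, had between 0 and 1.71% of the normalized reads of ITGB1 in a library.

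A further group of members had few reads. Means at or under 3 reads were found in 7 members in each MDA-MB-231 group, 4 members in low-glucose MDA-MB-468 and 5 in high-glucose MDA-MB-468, and 21 of the 32 members were above this level in every group. ITGA11 had 24 reads in total in low-glucose MDA-MB-231 and none in low-glucose MDA-MB-468, at least 7.48-fold lower by the floor of 3 reads over the group. ITGA7, the muscle laminin receptor subunit, stood at 13.4 ± 2.56 and 4.90 ± 2.54. A response to glucose was not tested for ITGA11, ITGA2B, ITGA9, ITGAL, ITGAM, ITGB6, ITGB7 and LAMC3 in MDA-MB-231, nor for ITGA1, ITGA10, ITGA11, ITGA7, ITGB3 and LAMA1 in MDA-MB-468. Changes in these were not detectable at this depth.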

How the data were processed

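RNA-Seq of 16 cell line libraries was analyzed. The study's methods give alignment to hg19 with TopHat and an Ensembl annotation, and a stranded kit, for its tumor libraries, and for the cell lines only RNA isolation and sequencing. The submitters' processing notes name hg38 and edgeR, and the counting program and its use of strand are not given in the sources used here. The deposited table holds a normalized signal per gene, in which the authors scaled each library's reads by 1 size factor. Undoing this scaling gave whole reads for 100% of values in every library (tolerance 0.01 reads, largest deviation 5.52e-05). Symbols were found for 16633 of 18332 IDs, and coordinates and canonical transcript lengths (17418 IDs) come from a GENCODE annotation on hg19, 1-based.

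Genes that reached 0.5 CPM in no fewer than 2 samples (of the line, or of all 16 for the line and interaction tests) entered the test, which was limma 3.58.1 under R 4.3.3 (lmFit, eBayes with trend) on log2(value + 1), two-sided, with Benjamini-Hochberg adjustment over all genes tested and a threshold of 0.05. Fold changes are on the log2(value + 1) scale, which understates those of low genes. The line comparison and the responses share the low-glucose libraries. edgeR 4.0.16 and DESeq2 1.42.0 on the recovered reads, other scalings, filters and pseudocounts, length correction, a replicate block and leaving out replicates were alternatives. edgeR called 2244 genes for glucose in MDA-MB-231, 7484 in MDA-MB-468, 5258 in the interaction and 14650 between lines. Leaving out single libraries was an alternative added after seeing the data. The steps were tested on simulated data.

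The floor was 3 reads, and ratios on few reads have exact 95% intervals for counting error only. Recovered reads per library set the depth, 14094597 to 24425916. The rule selects 33 genes, and 1 of them is not reported here and enters no count of members. Members, gene lists and the rule for named genes were chosen with earlier results of these data known. By that rule the text names called members, a fixed set of main subunits and chains, up to 8 line differences per direction, and up to 2 pathway genes per direction, line and list with a mean of at least 5 CPM. Remarks on members with few reads and on CD82, PTPRC and other partners were added after their values were seen.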

Additional observations from a re-analysis of the deposited data

Results flagged for a closer look

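The response to glucose differed between the lines for 12 of 31 members tested, where 30.9% of all genes tested passed, by the interaction test over all 16 libraries (limma, Benjamini-Hochberg adjusted p under 0.05), as the response in MDA-MB-468 minus that in MDA-MB-231 on the log2 scale. Among the 31, 12 passed the filter on low reads through 1 line alone, and of the 19 that passed in both lines 11 were called. The difference was positive for LAMC1 (0.58, adjusted p = 5.43e-08), ITGA6 (0.34, adjusted p = 6.23e-06), LAMB3 (0.43, adjusted p = 4.13e-05) and ITGA5 (0.68, adjusted p = 6.16e-05). It was also positive for ITGA3 (0.25, adjusted p = 0.000898), ITGB5 (0.24, adjusted p = 0.00215), LAMB1 (0.20, adjusted p = 0.00441) and ITGB8 (0.39, adjusted p = 0.0398). The test used a common spread for both lines, and ITGA5 had low reads in MDA-MB-468, so the adjusted p of ITGA5 may be too small. The difference was negative for LAMA4 (-0.48, adjusted p = 0.00105), ITGA2 (-0.22, adjusted p = 0.0116) and LAMA2 (-1.58, adjusted p = 0.0134). The value of ITGAM (-1.98, adjusted p = 0.0314) is no measure of a difference, since ITGAM passed the filter on low reads through low-glucose MDA-MB-468 alone and had 2 reads in total in each MDA-MB-231 group and 10 in high-glucose MDA-MB-468.

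A single library lay apart from the other 3 of its group, by Dixon's criterion, for 6 members. Of 105 member groups examined, chance alone flags about 1 in 20, so 6 is close to that share. ITGA2 was highest in replicate 4 of low-glucose MDA-MB-231, at 10756 normalized reads with the next value at 9834. In high-glucose MDA-MB-231, replicate 1 was highest for LAMA4 (126, next 106) and LAMA2 (21.4, next 9.51). In low-glucose MDA-MB-468, replicate 2 was lowest for ITGB4 (11422, next 12232) and replicate 1 lowest for ITGB8 (669, next 726). ITGA6 was highest in replicate 2 of high-glucose MDA-MB-468, at 3567 with the next value at 3392.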

How the results depend on the processing

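The counts of members called kept within 1.5 times their value under every alternative run. With 1 replicate or 1 library left out, 8 to 13 members were called in MDA-MB-231 (10 with all libraries), 12 to 17 in MDA-MB-468 (17), 8 to 13 in the interaction test (12) and 29 to 30 between lines (30). Calls that no alternative removed numbered 6 of 10, 9 of 17, 7 of 12 and 28 of 30. The only call that changed sign was ITGAV between lines, at 0.039 (adjusted p = 0.308) after quantile rescaling, and the cause was not tested. Calls named in the report that were lost most often were ITGB8 in the interaction (16 of 31 alternatives), ITGA2 in MDA-MB-468 (13 of 24), ITGAM in the interaction (13 of 29), ITGA3 in MDA-MB-231 (9 of 24) and LAMB3 in MDA-MB-468 (8 of 24). The calls of LAMA3 in MDA-MB-231 and of ITGB6 and ITGAL in MDA-MB-468 were lost only where all 16 samples were fitted together (adjusted p = 0.125, 0.412 and 0.083), and the cause was not tested. Members under about 3 reads per library are limited by depth.

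Whether the replicate numbers pair the samples was examined through deviations of same-numbered low- and high-glucose libraries from their group means. In MDA-MB-231 these correlated at -0.040 to -0.0051, and 0 of 8 samples correlated best with their own number, so no pairing was seen. In MDA-MB-468 they correlated at 0.017 to 0.032, and 6 of 8 samples correlated best with their own number, so a weak pairing is possible there. With the replicate number as a block, 10, 16, 12 and 30 members were called in the 4 comparisons, and with the block and length correction together 8, 15, 12 and 29.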
